A study of Arabidopsis thaliana with 2 samples.

Results

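The genes described here encode 9 splicing regulators of Arabidopsis thaliana, namely the polypyrimidine tract-binding proteins PTB1, PTB2 and PTB3, the large and small subunits of the splicing factor U2AF (U2AF65A, U2AF65B, U2AF35A and U2AF35B), and the glycine-rich RNA-binding proteins GRP7 and GRP8. Members were all transcript models of the deposited merged table whose own name, or whose nearest annotated transcript, carried the locus code of any of these genes. That gave 30 of the table's 52608 transcript models and 9 of its 33553 annotated genes. Of the 30 models, 22 were annotated transcripts and 8 were assembled from reads.

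The study sequenced RNA of siliques, the seed pods, to examine Argonaute 3, a protein that binds small RNAs. The 2 labelled libraries came from Col-0 plants with the ago3-3 mutation, taken 1 to 5 days after pollination from soil-grown plants in long days. Wild-type Col-0 siliques are named in the design as well. The sources used here do not say which libraries entered the merged table. A silique holds the fruit wall, seed coats, endosperm and embryos together, so no model can be assigned to a cell type. The table holds exon positions only, with no read count or expression level, so no level, replicate spread or difference between genotypes could be measured and no test was run. An annotated transcript is listed whether or not reads covered it, so its listing shows nothing about reads, and only an assembled model reports them. Whether assembled models that matched an annotated transcript were merged into its entry is not stated. A gene or form without an assembled model may therefore still have had reads.

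U2AF starts the recognition of the 3′ end of an intron: its large subunit binds the stretch of pyrimidines before the acceptor, and its small subunit binds the terminal AG. PTB proteins bind pyrimidine-rich RNA too and change which exons are joined. Several of these regulators act on their own RNA. In Arabidopsis, inclusion of an extra exon in PTB1 or PTB2, or use of another donor in the intron of GRP7 or GRP8, yields an RNA with an early stop codon that is open to nonsense-mediated decay, the removal of RNAs whose stop codon lies well before the last exon junction.

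New isoforms, which are assembled models with at least 1 junction missing from the annotation (class code j), were found for 5 of the 9 genes. They were PTB2 with 2, U2AF65B with 2, and U2AF65A, U2AF35A and GRP8 with 1 each, 7 in all. PTB1, PTB3, U2AF35B and GRP7 had no assembled model. Across the table, 19.0% of annotated genes had a new isoform, and among genes with at least 2 annotated exons, which all 9 members are, 28.3% did. The share of members, 55.6%, stands beside those shares as a description only. The 7 isoforms held 9 introns that were absent from the table's annotation, and 1 of these was listed in the newer RefSeq annotation of TAIR10.1. Among all 8026 new nuclear introns, 25.6% were listed there.

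The exons and junctions on which the results turn are shown first. In the exon sequences, capitals mark the exon and lower case the 20 nt of intron on either side, or, after the last exon of U2AF65A, the 20 nt past the end of the model. The cassette exon of PTB1 comes from the newer annotation and the other exons are assembled. All are read 5′ to 3′ on the gene's own strand from the RefSeq TAIR10.1 genome, where the PTB1 exon is at chr3:52645-52746 on the plus strand, the PTB2 exon at chr5:21570834-21570894 on the minus strand, the U2AF65A exon at chr4:17296406-17296445 on the minus strand, and the U2AF65B exons at chr1:22425366-22425403 and chr1:22425574-22425674 on the plus strand.
PTB1 cassette exon: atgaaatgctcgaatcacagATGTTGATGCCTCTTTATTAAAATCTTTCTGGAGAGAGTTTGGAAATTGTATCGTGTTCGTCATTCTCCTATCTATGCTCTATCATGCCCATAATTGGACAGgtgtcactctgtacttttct
PTB2 cassette exon: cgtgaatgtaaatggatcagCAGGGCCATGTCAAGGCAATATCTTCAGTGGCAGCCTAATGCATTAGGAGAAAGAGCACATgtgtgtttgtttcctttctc
U2AF65A last exon: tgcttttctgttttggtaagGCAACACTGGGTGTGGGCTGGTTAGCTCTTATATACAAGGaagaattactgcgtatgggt
U2AF65B first exon of the pair: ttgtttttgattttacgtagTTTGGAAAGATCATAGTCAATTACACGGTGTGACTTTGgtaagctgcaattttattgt
U2AF65B second exon of the pair: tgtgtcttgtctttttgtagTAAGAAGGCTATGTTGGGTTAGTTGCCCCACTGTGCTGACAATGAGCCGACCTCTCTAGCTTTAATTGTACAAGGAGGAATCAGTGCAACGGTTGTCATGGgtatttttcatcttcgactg

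Junctions are shown with 12 nt of exon in capitals and 12 nt of intron in lower case. They are shown because the PTB2 intron does not end in AG and because these introns of GRP7 and GRP8 lie inside the last coding exon. The PTB2 intron is at chr5:21569614-21569998, the GRP7.2 intron at chr2:9265665-9265715, the GRP8.2 intron at chr4:18274186-18274314 and the new GRP8 intron at chr4:18274186-18274470, all on the minus strand.
PTB2 new intron, donor: AAGCATCCCTAGgtgacagttgta
PTB2 new intron, acceptor: tttctgggcattAGGTATCTACTC
GRP7.2 intron, donor: GCCACCGTGGAGgtggtggcggtg
GRP7.2 intron, acceptor: actccggtggagGTGGTAGCTACG
GRP8.2 intron, donor: ACTCAGGAGGAGgcggtggtggtt
GRP8 new intron, donor: AAGAGATGAACGgtaaagagctcg
GRP8.2 and GRP8 new intron, acceptor: gaagttacggagGCGGTGGTGGCG

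PTB1 and PTB2 are close paralogues, and their annotated forms differed at the exon linked to autoregulation. Over 399 aligned residues 276 were identical, 69.2%, and 7 of the 8 coding introns of each gene lay at the same aligned place. PTB2 (AT5G53180, minus strand of chromosome 5, 21568200 to 21571902) had an annotated transcript that skips the cassette exon, PTB2.1, and another that includes it in a 58 nt form, PTB2.2. Read from the annotated start codon, PTB2.1 gave 429 codons. PTB2.2 gave 143 codons and met a stop inside the exon, 500 nt before the last exon junction. A stop more than 50 nt before the last junction is called early here, after the usual rule for nonsense-mediated decay, which describes the sequence and is no measure of decay.

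Both new PTB2 isoforms had an early stop, at different places. Assembled isoform 1 had 11 exons and 1749 nt and included the cassette exon from an acceptor 3 nt upstream, which made it 61 nt long. The 3 added bases, CAG, follow directly on another CAG in the intron, so the acceptors lie in tandem. It read 144 codons, 1 more than PTB2.2, to the same stop. Its chain of introns is listed in the newer annotation, and it was the only new member isoform of the 7 for which that held.

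Assembled isoform 2 of PTB2 had 10 exons and 1908 nt and retained the 152 nt intron before the cassette exon. The exon upstream, the intron and the cassette exon thus became 1 exon of 420 nt, which the newer annotation lists. The frame ran into the retained intron and stopped after 138 codons, 669 nt before the last junction. The isoform also carried a new intron of 385 nt with the ends GT and TT, whose acceptor lay 2 nt upstream of the annotated AG. The spliced RNA therefore gained the AG itself, visible as the first 2 capitals of the acceptor printed above. Of the new introns of all nuclear genes, 1.56% ended in bases other than AG, and this was the only such intron of the 9 here. It is absent from the newer annotation, and whether the junction was placed correctly was not tested.

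Both assembled PTB2 models ended 68 nt past the annotated 3′ end and within 1 nt of the 3′ end in the newer annotation. No assembled model skipped the cassette exon. Because annotated forms are listed regardless of reads, this leaves the amount of the full-length form unknown.

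PTB1 (AT3G01150, plus strand of chromosome 3, 51583 to 54506) had 2 annotated transcripts and no assembled one. PTB1.1 read 399 codons. PTB1.2 skipped a 63 nt exon and used a donor 24 nt upstream, which removed 29 codons and kept the frame to the annotated stop, so neither annotated form had an early stop. The newer annotation does list a cassette exon of 102 nt in 2 models of PTB1, in the intron that matches the PTB2 host intron. That intron follows codon 131 in PTB1 and codon 132 in PTB2, between codons in both, and is 524 nt long in PTB1 and 815 nt in PTB2. With the PTB1 exon included, the frame stopped after 137 codons, 672 nt or 625 nt before the last junction in the 2 models.

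The exons of the pair thus share a place and an early stop, but little sequence. The best local alignment of the host introns covered 29 columns, 24 of them identical, and lay outside both cassette exons. The PTB1 exon, in the letters above, was neither in the table's annotation nor assembled. The intron of PTB1.2 that spans the skipped exon, 702 nt long, was the only 1 of 72 annotated member introns missing from the newer annotation.

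**Figure D1:**
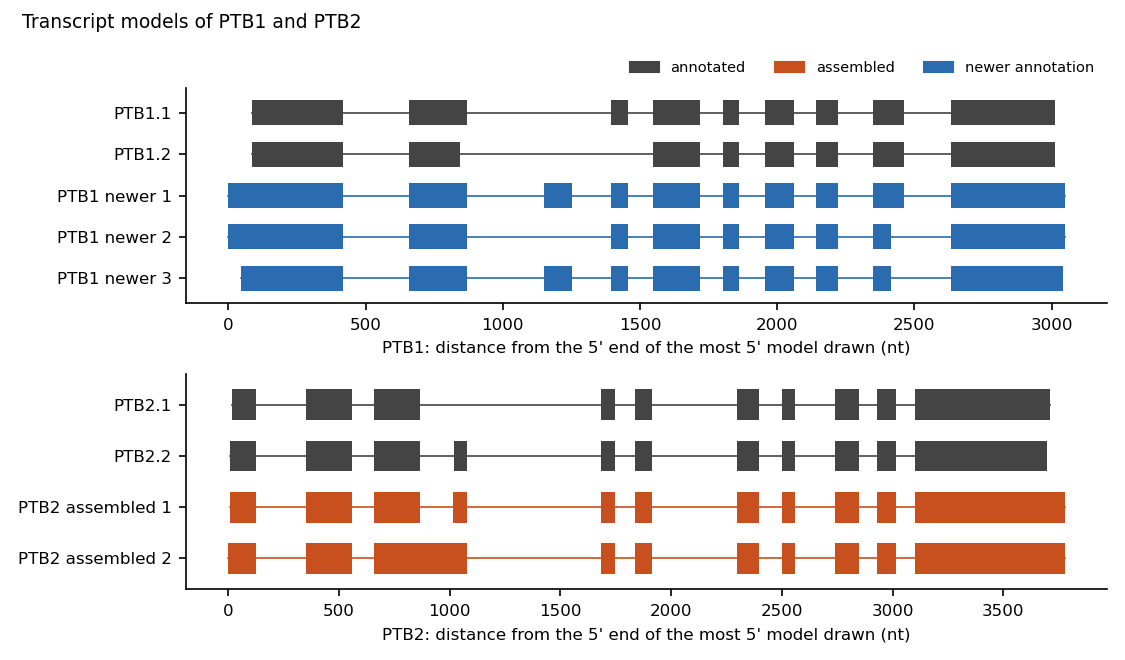
Exons (boxes) and introns (lines) of PTB1 and PTB2, drawn 5′ to 3′ with distance in nt from the most 5′ model end. Annotated models are grey, assembled ones orange and PTB1 models found only in the newer annotation blue. Both assembled PTB2 models hold the cassette exon, isoform 2 within a single 420 nt exon, and PTB1 has no assembled model.

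PTB3 (AT1G43190, minus strand of chromosome 1, 16275108 to 16278624) is a distant relative and showed neither a cassette exon with an early stop nor an assembled model. It shared 33.8% of aligned residues with PTB1 and 31.1% with PTB2, and 2 and 1 coding introns at the same place. Its 3 annotated transcripts differed little. PTB3.2 used another donor in the 5′ intron, 48 nt downstream, which left the 432 codons unchanged. The longer form of that intron, 309 nt, begins with GC. PTB3.3 used an acceptor 6 nt downstream and lost 2 codons. With 15 exons PTB3 had the most of the 9 genes, and 2 of its internal exons were only 14 nt and 22 nt long.

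U2AF65A and U2AF65B, the large subunits, both gained new exons inside the same intron. The proteins were identical at 407 of 565 aligned residues, 72.0%, and 10 of the 12 coding introns of each lay at the same aligned place. Intron 4 is among these. It lies 1 base past codon 191 of U2AF65A and 1 base past codon 207 of U2AF65B, and is 433 nt long in U2AF65A and 630 nt in U2AF65B. None of the new junctions inside it is listed in the newer annotation for either gene. All begin with GT and end with AG.

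In U2AF65B (AT1G60900, plus strand of chromosome 1, 22423909 to 22428022), the single annotated transcript reads 589 codons through 13 exons. Assembled isoform 2 had 15 exons and 2224 nt, since intron 4 was split by new internal exons of 38 nt and 101 nt into introns of 69 nt, 170 nt and 252 nt. Neither exon is a multiple of 3. The frame passed the first of them and stopped at the first codon boundary of the second, whose opening letters above are TAA, after 220 codons and 1108 nt before the last junction. Among annotated nuclear genes with at least 2 exons, 0.583% had a new internal exon within an annotated intron.

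Assembled isoform 1 of U2AF65B was short, with 5 exons and 776 nt. It skipped the 38 nt exon, joined exon 4 directly to the acceptor of the 101 nt exon across a 277 nt intron, and ended 49 nt into that exon. Its frame differed there, and 223 codons were read without a stop before the model ended. The acceptor of the 101 nt exon was thus used in both assembled isoforms, after different donors.

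U2AF65A (AT4G36690, minus strand of chromosome 4, 17293947 to 17297761) had a matching short model. Its assembled isoform 2 had 5 exons and 766 nt, spliced exon 4 to a new acceptor 214 nt into intron 4, and ended in a last exon of 40 nt. It read 204 codons with no stop before its end. A new last exon within an annotated intron was found in 0.806% of nuclear genes with at least 2 exons. Of all new isoforms holding the annotated start codon, 1.39% had no stop before the end of the model, and both such member isoforms belong to this pair. Whether these ends are true 3′ ends or the limit of the assembled reads was not tested.

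The sequence before the new U2AF65A acceptor was like that before the acceptor of the 101 nt exon of U2AF65B. The other new U2AF65B acceptor, before the 38 nt exon, lies upstream of the aligned stretch, as does that exon. The best local alignment of the introns had 97 aligned columns with 70 identical, 72.2%. It covered positions 107 to 209 of the U2AF65A intron and 168 to 266 of the U2AF65B intron. It ended 5 nt before the new U2AF65A acceptor and 11 nt before that of the 101 nt exon. The best local alignment of the assembled exons of 40 nt and 101 nt, the kind of measure used for the PTB introns, covered only 18 columns, 15 of them identical. An end-to-end alignment of the sequence after these 2 acceptors paired 58 of the 101 bases of the U2AF65B exon with U2AF65A, 44 of them identical. At the place of the U2AF65B donor in this alignment, U2AF65A has GT, 58 nt after its new acceptor. The assembled U2AF65A exon ended at 40 nt, before that GT, and no U2AF65A model in the table uses it as a donor.

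The annotated forms of U2AF65A differed mainly near the 3′ end of the gene. U2AF65A.1 read 573 codons. U2AF65A.2 retained a 273 nt intron and stopped after 542 codons, 228 nt before the last junction, and U2AF65A.3 used an acceptor 173 nt upstream and stopped after 565 codons, 59 nt before it. U2AF65A.4 shifted a donor 49 nt upstream and an acceptor 17 nt downstream around intron 2 and lost 22 codons with the frame kept. Among annotated nuclear transcripts with more than 1 exon that hold the start codon, 6.22% had an early stop, and of the members' annotated transcripts 3 did, PTB2.2, U2AF65A.2 and U2AF65A.3. U2AF65B had no annotated counterpart to any of these forms.

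The form with the later early stop was also assembled. Assembled isoform 1 of U2AF65A matched every intron of U2AF65A.3 and was the single exact match among the 8 assembled member models. Its last exon was 2048 nt long and ran through all 1594 nt of the next gene on the same strand, AT4G36680, a single-exon gene that RefSeq annotates as a tetratricopeptide repeat-like protein. The genes are 124 nt apart. AT4G36680 is named only because this model covers it, and whether the exon is a read-through RNA or a joining of reads of neighbouring genes was not tested.

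**Figure D2:**
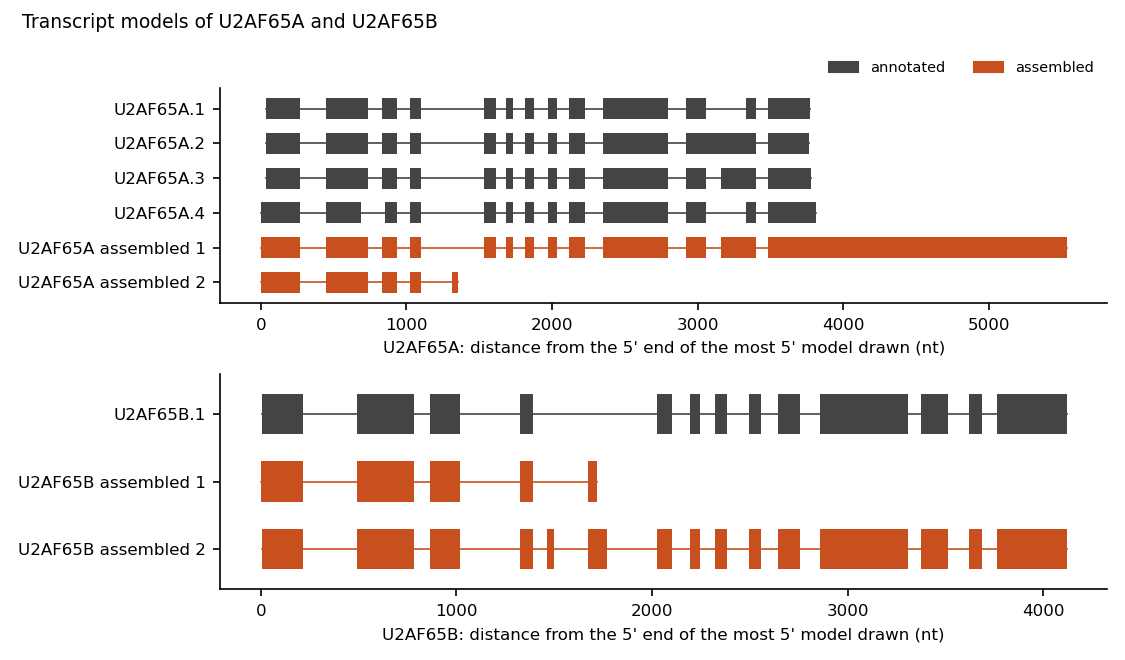
Exons (boxes) and introns (lines) of U2AF65A and U2AF65B, drawn 5′ to 3′ with distance in nt from the most 5′ model end, with annotated models grey and assembled ones orange. The short assembled models of both genes end inside intron 4, assembled isoform 2 of U2AF65B adds exons of 38 nt and 101 nt there, and the last exon of assembled isoform 1 of U2AF65A runs 2048 nt.

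The small subunits U2AF35A and U2AF35B have their full coding sequence within a single exon. No model had an intron wholly between the annotated start and stop codons, but the 614 nt intron of U2AF35A.2 removed the start codon. The proteins were identical at 243 of 283 aligned residues, 85.9%, the highest share among the pairs. U2AF35A (AT1G27650, plus strand of chromosome 1, 9614551 to 9616357) had 1 new isoform, with a first exon of 63 nt inside the 402 nt intron of the 5′ untranslated region and a new intron of 289 nt. Its 296 codons were unchanged. A new first exon within an annotated intron was found in 1.67% of nuclear genes with at least 2 exons.

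All 63 nt of that exon lie opposite AT1G27640, a single-exon gene of 444 nt on the minus strand that is named only for this overlap. The library kit keeps the strand, and the assembled model and its GT to AG intron are on the plus strand. The annotated transcript U2AF35A.2, with a 614 nt intron, lacks the start codon of U2AF35A.1, and its longest open frame was 246 codons.

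U2AF35B (AT5G42820, minus strand of chromosome 5, 17169283 to 17171704) had 2 annotated transcripts of 283 codons each and no assembled model. U2AF35B.2 differs by a 650 nt intron after the stop codon, which lies 35 nt before that last junction and so is not early by the 50 nt rule.

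GRP7 and GRP8 are glycine-rich proteins whose RNA levels follow the circadian clock. They were identical at 135 of 167 aligned residues, 80.8%, and share their coding intron, after codon 38 in GRP7 and codon 36 in GRP8. The intron is 309 nt long in GRP7 (AT2G21660, minus strand of chromosome 2, 9265249 to 9266393) and 283 nt in GRP8 (AT4G39260, minus strand of chromosome 4, 18273899 to 18275079). All 2 GRP7 models and all 5 GRP8 models used the same donor and acceptor of it. The form with another donor in this intron, known for autoregulation, was thus in neither the table nor the newer annotation.

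The annotated and assembled forms of the pair differed in their introns only within the last coding exon, and every form reached the annotated stop. GRP8 models also differed at their ends: GRP8.3, GRP8.4 and the assembled model began 57 nt, 62 nt and 79 nt downstream of GRP8.1, and GRP8.4 ended 107 nt short of it. GRP7.1 read 176 codons and GRP7.2, with a 51 nt intron, 159. GRP8.1 read 169 codons, GRP8.2 with a 129 nt intron 126, GRP8.3 with a 231 nt intron 92, and GRP8.4 with a 192 nt intron 105. The new GRP8 isoform joined the donor of GRP8.4 to the acceptor of GRP8.2 and GRP8.3, a pairing of annotated sites not listed before, across 285 nt. It kept 74 codons, 95 fewer than GRP8.1. All of these introns are multiples of 3.

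These introns had unusual ends. GRP8.2 and GRP8.3 start with GC and GRP8.4 ends with CG, while the new GRP8 intron, with the donor of GRP8.4 and the acceptor of the others, runs from GT to AG. Of the 72 annotated member introns, 68 had GT and AG, 3 had GC and AG, of which the other is in PTB3, and GRP8.4 had the only other pair. Some also ended in direct repeats, the same letters at the donor and the acceptor, so that the spliced RNA is the same wherever within the repeat the junction is drawn. The repeat was 14 nt in GRP8.2, GGAGGCGGTGGTGG, and 11 nt in GRP7.2, GTGGAGGTGGT. It was 4 nt in GRP8.3 and GRP8.4 and 2 nt in the new GRP8 intron, and at most 6 nt in the introns of the other 7 genes. A repeat of at least 8 nt was found at 0.307% of annotated nuclear introns. Whether these models report splicing was not tested.

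**Figure D3:**
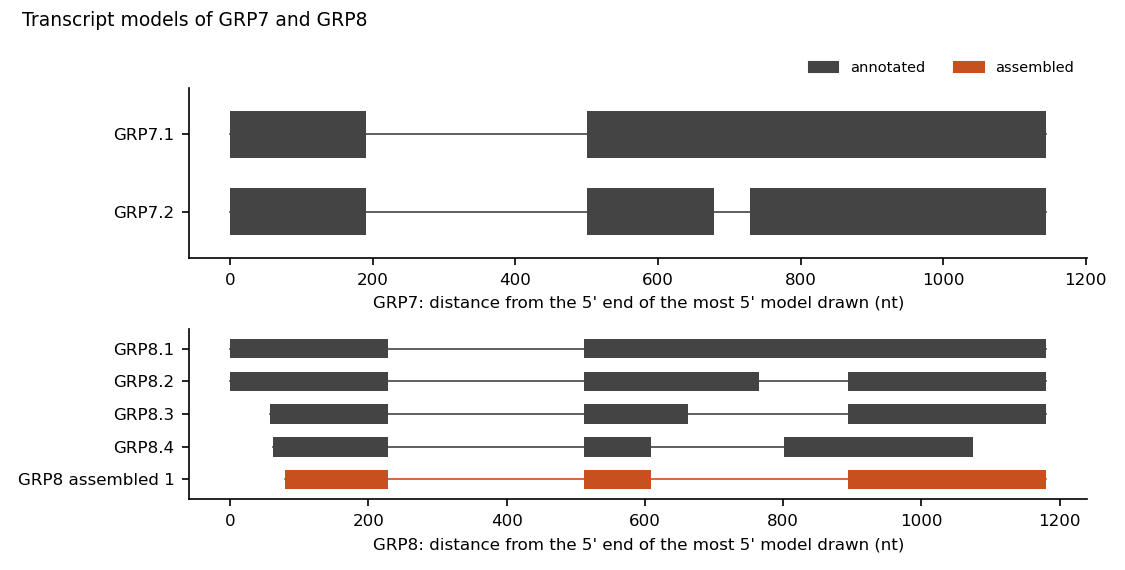
Exons (boxes) and introns (lines) of GRP7 and GRP8, drawn 5′ to 3′ with distance in nt from the most 5′ model end, with annotated models grey and the assembled one orange. Every model shares the first intron, and the models differ by introns of 51 nt to 285 nt in the last coding exon.

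By event type, 5 of the 9 new introns used another acceptor, in PTB2, U2AF65A and U2AF65B. Only those of PTB2, 3 nt and 2 nt upstream, were small shifts of an annotated acceptor. Those of U2AF65A and U2AF65B lay 219 nt, 353 nt and 561 nt upstream and were the borders of new exons. Alternative acceptors made up 41.2% of new introns of all nuclear genes. Alternative donors were 2 of 9, in U2AF65B and U2AF35A, against 23.7%, and 1 intron, in U2AF65B, had both sites new, against 22.2%. The new pairing in GRP8 was 1 of 9, against 4.88%. The alternative donors of U2AF65B and U2AF35A were likewise the ends of new exons. Each intron was counted in 1 class, by its sites first, so the inclusion of a new exon is spread over several classes, in the background too. The GRP8 intron also lies wholly inside an exon of GRP8.1, but counts as a new pairing because both of its sites are annotated. Introns inside an annotated exon with neither site annotated were 8.01% of all new introns and 0 of the 9 here. PTB2 added the single retained intron. With 9 introns these counts are descriptions.

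Read from the annotated start codon, 3 of the 7 new isoforms had an early stop, 2 from PTB2 and 1 from U2AF65B. Another 2 had no stop before their end, and 2 kept the annotated stop, from U2AF35A and GRP8. Among all new isoforms that hold the start codon, 48.5% had an early stop, so the members' count is close to the background.

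In 3 of the 4 paralogue pairs the pair members differed in whether any isoform was new. PTB2 but not PTB1, U2AF35A but not U2AF35B, and GRP8 but not GRP7 had new isoforms, and only the U2AF65 pair had them in both genes. Assembly depends on read depth, which is unknown for each gene, so an absent isoform does not show that a form was not made. Genes with more exons had new isoforms more often: 10.7% of genes with 2 annotated exons did, as did 17.2% with 3, 42.3% with 9, 45.7% with 11, 44.0% with 13 and 52.4% with 15. PTB3 and PTB1 had none in the classes of 15 and 9 exons, and U2AF35A had 1 in the class with the lowest share.

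**Figure D4:**
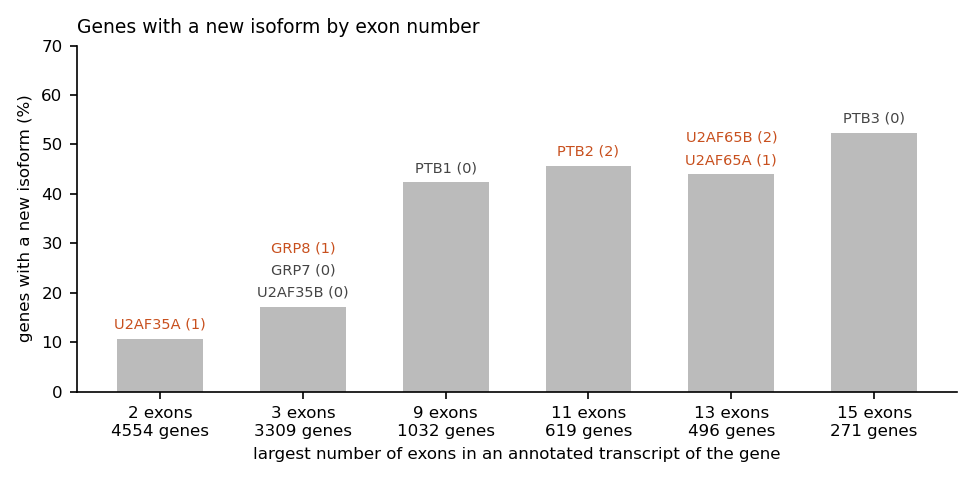
Bars give the percentage of annotated genes with a new isoform, for the exon numbers that the 9 genes have, and the x axis gives the largest number of exons in an annotated transcript with the number of genes. Member names stand above their class with their count of new isoforms in parentheses, orange where above 0, and the bars range from 10.7% to 52.4%.

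Since PTB and U2AF bind pyrimidines near acceptors, the C and T content of the members' own acceptors was described. In the 20 nt before the last 2 bases of the intron, the median over all annotated nuclear introns was 65%, with the middle of the distribution, from the 25th to the 75th percentile, between 55% and 70%. The 68 annotated acceptors of the 9 genes had a median of 65% too, from 25% in GRP8.4 to all 20 bases at an intron of U2AF65A of 120 nt. New acceptors had 75% in U2AF65A, 70% and 80% in U2AF65B, and 65% and 35% in PTB2, the last before the cassette exon. The cassette exon of PTB2 thus lay after a pyrimidine-poor stretch, as did its annotated acceptor 3 nt downstream, also at 35%, while the new acceptors in the U2AF65 genes lay at or above the 75th percentile.

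**Figure D5:**
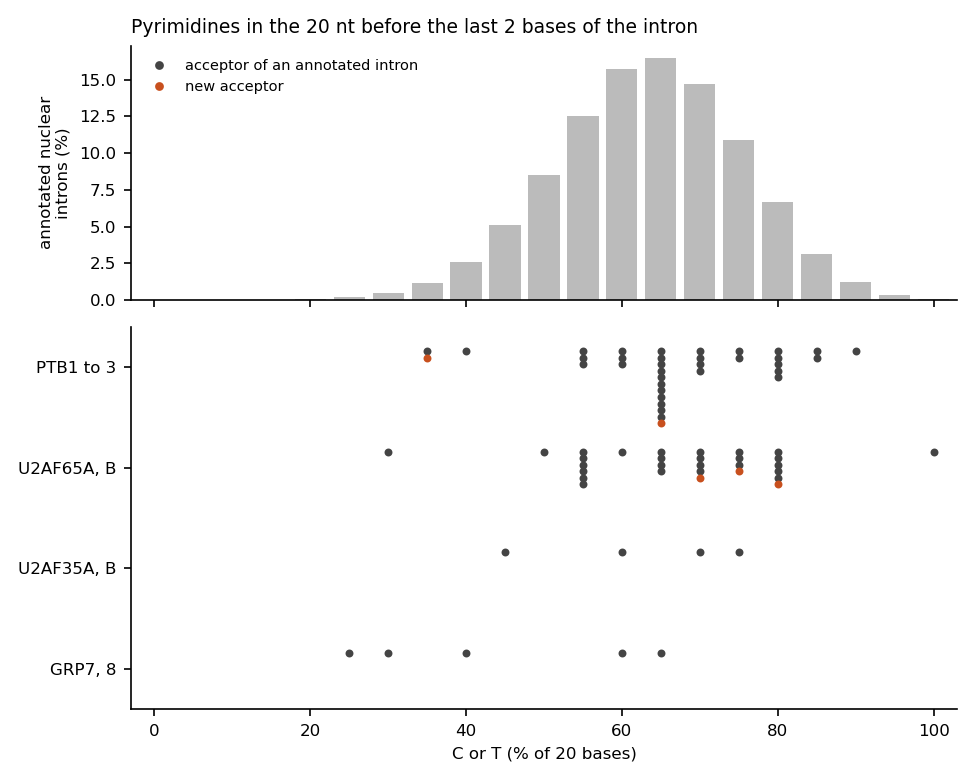
The upper panel gives the percentage of annotated nuclear introns at each share of C or T in the 20 nt before the last 2 bases. The lower panel gives the acceptors of the 9 genes by family, 1 point each, grey for annotated and orange for new, and the new acceptors of U2AF65A and U2AF65B lie between 70% and 80% while that of the PTB2 cassette exon lies at 35%.

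Short pyrimidine motifs were searched on the transcribed strand in the last 60 nt of introns. TCTT was present in 48 of 71 annotated member introns and 7 of 9 new ones, against 56.9% of all annotated nuclear introns. CTCTCT was present in 2 and 0, against 3.64%. These counts are of introns, unlike the pyrimidine shares, so introns with a shared acceptor count separately. Among the new introns, those of 277 nt and 170 nt in U2AF65B share an acceptor. That of 252 nt in U2AF65B and those of U2AF35A and GRP8 end at annotated acceptors. A match is a description of letters and not a binding site.

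Genes of related families gave a setting for the members. Of 5 other glycine-rich RNA-binding protein genes, 1 had a new isoform, and of 13 genes for the oligouridylate-binding UBP1, RBP45, RBP47 and UBA2 proteins, 2 had. In the U1 and U2 particles, branch point and cap binding list it was 6 of 12. Among the SR and SR45 genes, which encode serine and arginine-rich splicing factors, it was 12 of 20, and among hnRNP A/B-like genes 5 of 7. All of these genes have at least 2 annotated exons, and beside the 28.3% of all such genes in the table the shares of the first 2 lists lie below and those of the other 3 above. The lists were not matched for exon number, across which the share of genes with a new isoform differs as given above. They are small, and no test was run.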

How the data were processed

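Per the labels' protocols, total RNA was depleted of ribosomal RNA and sequenced as stranded libraries. CASAVA 1.8, TopHat2 and Cufflinks were run on TAIR10, per the submitters' processing notes. For TopHat2 and Cufflinks, versions and settings are not stated there. The deposited table, a merged set of exon positions (start and end bases), has 0 columns of values per library, so depth and precision are unknown.

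Assembled models were compared with annotated ones with Python 3.11.15. Of 127854 annotated nuclear introns, 99.0% had the same coordinates in RefSeq TAIR10.1, which gave sequences, reading frames and newer models. Proteins were translated and aligned with Biopython 1.88 (BLOSUM62). The scripts recovered 18 of 18 checks on simulated data. RefSeq lists the gene names used here as symbols or synonyms, in part with the prefix AT, except U2AF65B, which it lists by locus code. All 9 genes are named, with neighbours that a model overlaps. The members and lists were chosen with earlier results of these data known. Alternatives changed the class codes, windows and stop rules.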

Additional observations from a re-analysis of the deposited data

How the results depend on the processing

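Of 29 alternatives, 28 left the value within 1.5 times of the reported one, or within its interval for pyrimidines. The alternatives for genes, isoforms, introns, event types and related lists were all among these. In 25 of the 29 the value was identical to the main one. Several of these could not have differed. Each new intron lay in 1 isoform, every gene of the related lists has at least 2 exons, and assembled member models were either class j or an exact match. Such alternatives say nothing about stability. The count of new isoforms with an early stop moved from 3 to 1 when the longest open frame was read in place of the frame from the annotated start codon, because the longest frame of the 3 isoforms ends at the annotated stop, while that of the short U2AF65B isoform ends early. No paired analysis was possible because the deposited table holds no value per library, and for the same reason no replicate could be left out. Unknown depth limits every statement on an isoform that was not assembled.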
